A study of Mus musculus and Homo sapiens with 40 samples.

Results

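Immediate early genes are switched on by growth factor, stress and inflammatory signals without new protein synthesis, largely through MAPK signalling to factors already bound at their promoters. The 10 genes described here are 3 EGR zinc finger transcription factors (*Egr1*, *Egr2*, *Egr3*), 3 immediate early response genes (*Ier2*, *Ier3*, *Ier5*), 3 dual specificity phosphatases that take the phosphates off MAP kinases (*Dusp1*, *Dusp2*, *Dusp5*), and *Zfp36*, whose product tristetraprolin binds and destabilises cytokine mRNAs. The phosphatases and *Zfp36* are feedback genes, induced by the signal that they restrain. They were chosen by name as 10 of the 21738 protein-coding genes of the GENCODE annotation of mm39, and each locus was the gene body with 50 kb on both sides.

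Histone marks and CEBPA binding were measured by ChIP-seq in HPC-7 cells, a mouse haematopoietic progenitor line with very little CEBPA of its own that is grown with stem cell factor. Cells were transduced by retrovirus with 1 isoform of CEBPA, the full-length p42 or the N-terminally shortened p30, each fused to ERT2, a modified part of the estrogen receptor, and were sorted by GFP. According to the study's methods, cells with these fusions were given hydroxytamoxifen before experiments to bring the fusion into the nucleus, a treatment that the sample labels do not name. Each isoform was carried by 1 transduced line, so that line and isoform cannot be told apart.

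H3K27ac, a mark of active promoters and enhancers, was measured in both lines without treatment and after LPS at 100 ng/mL for 2 h, in 3 samples per group that the authors pooled into 1 peak list. For H3K4me1, a mark of enhancers, 2 samples per untreated line were pooled. CEBPA was measured with an antibody against CEBPA in 1 library per line, and with anti-ER, which recognises the receptor portion of the fusion, in 1 library per untreated line. The deposited lists held 107141 to 142419 H3K27ac peaks, 134658 and 168035 H3K4me1 peaks, and 23248 to 47517 factor sites on chromosomes 1 to 19, X and Y. With 1 list per group, differences between lists could not be set against replicates and none was tested. Read depth is not given by the lists, and depth moves the number and the order of called peaks. As a check of the cell type, all 11 haematopoietic progenitor genes looked up had an H3K27ac peak at the promoter in each of the 4 lists, and of 8 genes of other cell types only *Pecam1* did.

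Growth factor signals reach genes of this kind through serum response factor, which binds the CArG box, and through CREB and related factors, which bind the cAMP response element TGACGTCA, abbreviated CRE. The promoter sequence of 9 of the genes was searched, in windows from 250 bases before to 50 bases after the canonical start. Other transcript starts and sequence further away were not searched, so a gene without a match, such as *Egr1*, may still hold a motif there. A CArG box was found on either strand in 2 of the 9, *Egr2* and *Dusp5*, against 1.54% of the promoters of all protein-coding genes. The CRE was found in *Ier2* and *Dusp1*, against 2.45% of all promoters. All but *Ier2* are shown on GRCm39 from base −250 to base −15 before the start, each on the strand of its gene, with the CArG box or CRE in capitals. They lie at chr10:67373442-67373677 (*Egr2*), chr19:53517282-53517517 (*Dusp5*, with 2 CArG boxes side by side) and chr17:26727508-26727743 (*Dusp1*).
Egr2: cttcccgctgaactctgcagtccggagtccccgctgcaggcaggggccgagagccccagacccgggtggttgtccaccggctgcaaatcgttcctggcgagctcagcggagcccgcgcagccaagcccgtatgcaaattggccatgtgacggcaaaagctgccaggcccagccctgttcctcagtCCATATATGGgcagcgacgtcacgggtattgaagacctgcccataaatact
Dusp5: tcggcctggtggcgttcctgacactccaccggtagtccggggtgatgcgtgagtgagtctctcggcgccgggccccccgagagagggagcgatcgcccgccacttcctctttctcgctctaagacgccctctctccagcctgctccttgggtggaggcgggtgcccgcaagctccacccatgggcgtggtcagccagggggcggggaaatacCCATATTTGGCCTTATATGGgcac
Dusp1: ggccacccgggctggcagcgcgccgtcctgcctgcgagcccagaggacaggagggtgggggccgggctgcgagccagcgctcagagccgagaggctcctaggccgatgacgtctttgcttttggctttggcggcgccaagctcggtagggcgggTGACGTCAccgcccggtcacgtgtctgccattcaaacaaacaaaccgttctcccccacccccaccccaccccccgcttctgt
The CArG box began at base −65 from the start in *Egr2* and at −38 and −28 in *Dusp5*. The CRE began at base −43 in *Ier2* and at −96 in *Dusp1*. Of the other motifs searched on both strands, the EGR motif GCGGGGGCG was found in *Dusp2* (3.28% of all promoters) and the NF-kB motif in *Ier3* (4.87%). The AP-1 motif TGANTCA (7.15% of all promoters), the CEBP motif TTGCNNAA (10.7%), the CEBP:ATF4 motif TGATGCAA (0.994%) and the ETS motif CCGGAAGT (4.35%) were in none of the 9 windows. No 2 matches of different motifs overlapped, and a match is a run of letters, not a measured site.

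All 10 promoter windows overlapped an H3K27ac peak before any LPS was given. In untreated p42-expressing cells all 10 genes had an H3K27ac peak within 1000 bp upstream to 100 bp downstream of the canonical start, against 48.9% of all protein-coding genes, and in untreated p30-expressing cells all 10 had one, against 48.5%. With LPS the counts were 9 of 10 in p42-expressing cells, against 48.4% of all genes, and 10 of 10 in p30-expressing cells, against 49.8%. The missing case was *Egr3*. Its peak was called in each list with the summit about 2.2 kb upstream of the start, and in the p42 list with LPS it ended at base −1097 from the start, just short of the promoter window. In the untreated p42 list it ended at base −853. The *Ier5* peak met only the other end of the window, beginning at base 55 from the start in untreated p42- and at 70 in untreated p30-expressing cells.

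The promoter peaks were ranked within each list by the authors' −log10 q and then by their fold enrichment over the local background. They were in the best 10% of the list for all 10 genes in untreated p42-expressing cells, against 38.8% of all genes, and for 9 with LPS, against 35.5%. *Egr3* was at the edge of this limit, at 9.98% of the untreated p42 list. In p30-expressing cells all 10 were in the best 10%, both untreated, against 39% of all genes, and with LPS, against 40.7%. These shares count a gene without a promoter peak as outside the best 10%. Of all genes with one, 8438 of 10635 and 7714 of 10516 were inside it in p42-expressing cells, untreated and with LPS. In p30-expressing cells 8467 of 10541 and 8847 of 10836 were, so this place is usual for a promoter peak. The median promoter rank lay at 2.80%, 1.77%, 2.00% and 1.84% of these 4 lists for the 10 genes. Over all genes it lay at 4.57%, 5.49%, 4.34% and 4.15%. Peaks of 5 kb or more lay at 5 promoters in untreated p42-expressing cells (5.73% of all genes), 4 with LPS (4.17%), 5 in untreated p30-expressing cells (5.16%) and 4 with LPS (5.64%).

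The 10 genes differed widely among themselves, as the plot of promoter ranks shows. *Dusp1*, the phosphatase that acts on p38 and JNK, ranked 111 and 117 in p42-expressing cells, untreated and with LPS, and 108 and 609 in p30-expressing cells. *Zfp36* ranked 152 and 186 in p42-expressing cells, and 43 and 262 in p30-expressing cells, with peaks of 13.8 to 16.7 kb. Both were thus among the best 1% of all 4 lists. The fold enrichment at the summit was 53.9 to 116 at *Dusp1* and 93.6 to 129 at *Zfp36*.

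**Figure D1:**
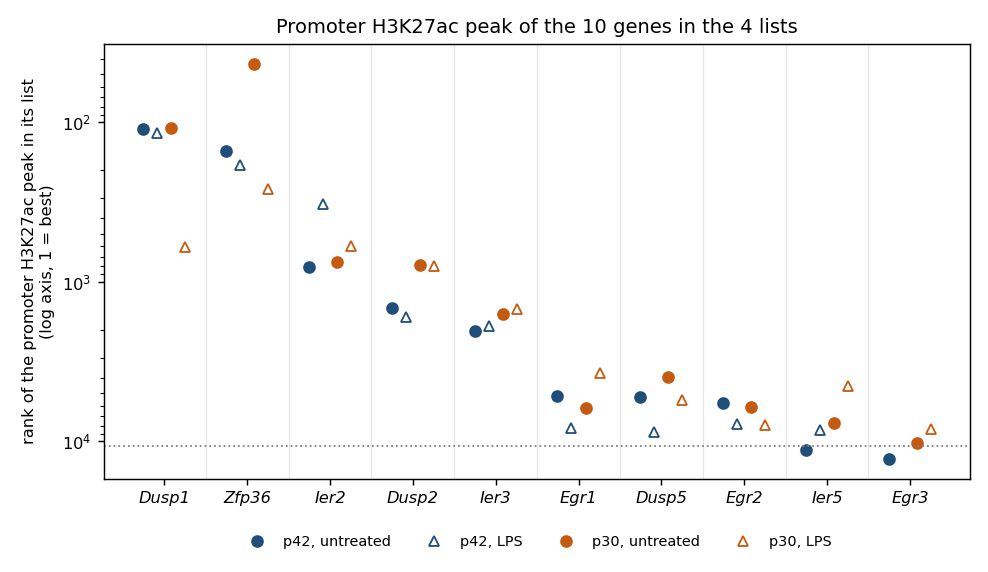
Rank of the promoter H3K27ac peak within its list for the 10 genes (log axis, 1 is the best rank), with circles for untreated cells and triangles for LPS, blue for p42 and orange for p30. The dotted line marks 10% of the shortest list, and *Egr3* has no point for p42 with LPS. *Dusp1* and *Zfp36* lie at ranks 43 to 609 and *Egr3* at 8408 to 12910.

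Next came *Ier2*, which encodes a nuclear protein, with ranks of 809 untreated and 324 with LPS in p42-expressing cells, and 749 and 598 in p30-expressing cells. *Dusp2*, a nuclear phosphatase of haematopoietic cells, ranked 1472 and 1674 in p42-expressing cells, and 783 and 796 in p30-expressing cells. *Ier3*, a stress-induced gene linked to cell survival, ranked 2044 and 1898, and 1598 and 1490. These 5 genes lay ahead of the other 5 in each of the 4 lists.

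*Egr1* ranked 5199 untreated and 8300 with LPS in p42-expressing cells, and 6184 and 3756 in p30-expressing cells. *Egr2* ranked 5756 and 7803, and 6114 and 7923. *Dusp5*, a nuclear phosphatase selective for ERK, ranked 5294 and 8733, and 3963 and 5489. The order of these 3 genes changed from list to list, and their ranks overlapped. *Ier5*, whose product acts with heat shock factor, ranked 11400 and 8477 in p42-expressing cells, and 7747 and 4488 in p30-expressing cells, and *Egr3* ranked 12910 untreated in p42-expressing cells, and 10292 and 8408 in p30-expressing cells. The fold enrichment at the *Egr3* summit was 15.5 to 25.9 in those 3 lists.

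The EGR genes lie on chromosome 18 (*Egr1*, 34992876-34998049, plus strand), chromosome 10 (*Egr2*, 67371305-67378018, plus) and chromosome 14 (*Egr3*, 70314350-70320063, plus). *Ier2* is on chromosome 8 (85387960-85389483, minus), *Ier3* on chromosome 17 (36132568-36133815, plus) and *Ier5* on chromosome 1 (154972107-154975382, minus). *Dusp1* is on chromosome 17 (26724564-26781102, minus), *Dusp2* on chromosome 2 (127177957-127180296, plus) and *Dusp5* on chromosome 19 (53517532-53530862, plus), and *Zfp36* is on chromosome 7 (28076209-28079710, minus). Some annotated transcripts of *Dusp1* begin far upstream of its canonical start at 26727493, which made its locus 157 kb long against 101 to 113 kb for the others. The loci also hold starts of 1 to 5 other protein-coding genes each, 5 of them around *Ier3* and 5 around *Zfp36*, so a peak in a locus is not thereby a peak of the named gene.

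Across the loci, H3K27ac was dense. Peaks with the summit in a locus numbered 251 over the 10 loci in untreated p42-expressing cells, 251 with LPS, 258 in untreated p30-expressing cells and 305 with LPS. With the lists cut to equal numbers of peaks they were 217, 251, 203 and 239, in the same order of lists, so the excess in p30-expressing cells was not kept. The median share of a locus under peaks was 24.5% and 24.0% in p42-expressing cells, untreated and with LPS, and 33.6% and 34.2% in p30-expressing cells. Over the loci of all protein-coding genes the medians were 6.65%, 5.43%, 6.82% and 6.69%. In untreated p42-expressing cells the share ran from 11.9% at *Egr2* to 46.9% at *Zfp36*, and in untreated p30-expressing cells from 10.9% at *Egr2* to 48.5% at *Ier3*. *Egr2* had the smallest share of the 10 in all 4 lists.

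The length under H3K27ac differed little between untreated cells and cells given LPS. In p42-expressing cells 9 of the 10 loci had a shorter covered length with LPS, beside 13796 of 16464 genes, and *Ier3* had a longer one. The median ratio was 0.945 against 0.837 over all genes. In p30-expressing cells 7 of 10 had a longer covered length, beside 7909 of 16544 genes. The median ratio was 1.03 against 0.992 over all genes. No locus passed 1.5 times in either direction in p42-expressing cells, where 15.2% of all genes did, or in p30-expressing cells, where 7.14% did. The p42 list with LPS was the shortest of the 4 lists, and its part in the shorter lengths was not tested.

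**Figure D2:**
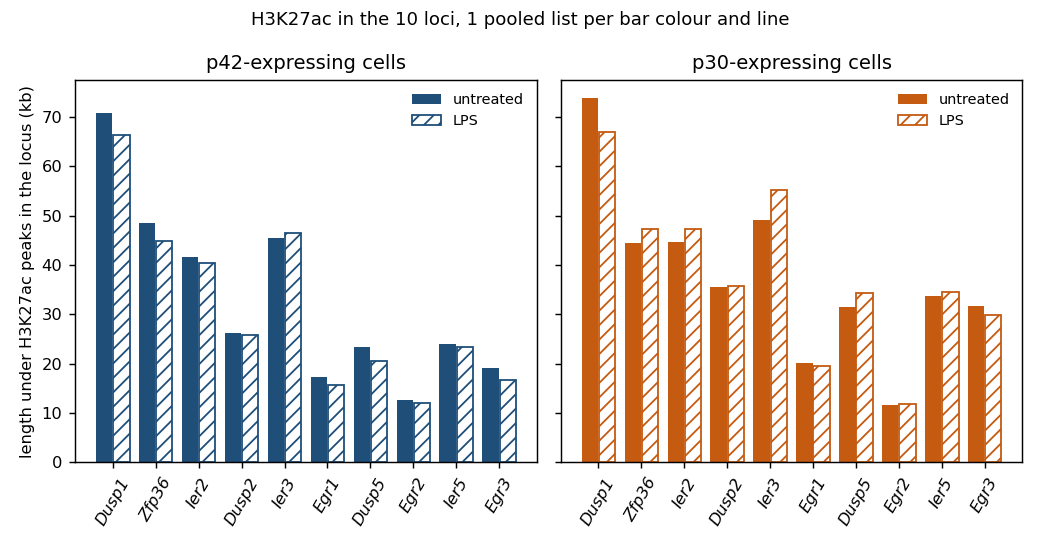
Length under H3K27ac peaks in each locus (kb) in p42-expressing cells on the left and p30-expressing cells on the right, with filled bars for untreated cells and hatched bars for LPS. Each bar is 1 pooled list, so there is no error bar. The largest relative change with LPS is at *Dusp5* in p42-expressing cells, a ratio of 0.872.

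At *Dusp5* the covered length was 23480 bp before and 20476 bp after LPS in p42-expressing cells, and 31440 and 34438 bp in p30-expressing cells. At *Dusp1* it was 70810 and 66275 bp in p42-expressing cells, and 73856 and 66868 bp in p30-expressing cells, shorter with LPS in both lines. At *Ier3* it was 45421 and 46475 bp, and 49057 and 55246 bp, longer with LPS in both lines. The remaining ratios lay between 0.882 and 1.06.

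Promoter ranks moved in both directions with LPS. In p42-expressing cells *Ier2* moved to a better rank by 1.5 times or more, 1 of the 9 genes with a promoter peak in both lists, against 9.17% of all such genes. *Egr1* and *Dusp5* moved to a worse rank, 2 of 9 against 10.1%. In p30-expressing cells *Egr1* and *Ier5* moved to a better rank, 2 of 10 against 11.4%, and *Dusp1* and *Zfp36* moved to a worse one, 2 of 10 against 6.62%. These counts are too small to be set apart from the shares of all genes. *Egr1* was the only gene that moved past 1.5 times in both lines, and it did so in opposite directions.

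Some of the wide promoter peaks were called narrower with LPS. The width of the *Dusp2* peak was 8064 bp before and 4418 bp after LPS in p42-expressing cells, and 14258 and 4516 bp in p30-expressing cells. The *Dusp1* peak was 9996 and 9976 bp wide in p42-expressing cells, and 9566 and 5004 bp in p30-expressing cells. Narrower by 1.5 times or more were 1 of 9 promoter peaks in p42-expressing cells, against 12.1% of all genes, and 3 of 10 in p30-expressing cells, against 6.09%, the third being that of *Egr1* (4389 and 2856 bp). The bases themselves were still under peaks. Over the span of the untreated *Dusp2* peak in p30-expressing cells the LPS list held 4 peaks that covered 96.2% of it, and over that of *Dusp1* it held 2 peaks that covered 97.4%. At *Egr1* 2 peaks covered 94.2%. In these cases 1 untreated peak was called as several peaks with LPS.

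Peak by peak, the 4 H3K27ac lists merged into 335 regions with a summit in the loci, of which 126 (37.6%) were in all 4 lists, against 30.9% of all regions of the genome. In p42-expressing cells 143 regions were in both the untreated and the LPS list. Another 38 (16.8% of those in either list) were gained with LPS, against 12.5% of all regions, and 45 (19.9%) were lost, against 33.2%. With the lists cut to equal numbers of peaks the order reversed, with 46 regions gained and 25 lost. In p30-expressing cells 181 were in both lists, 72 (24.6%) were gained, against 22.5%, and 40 (13.7%) were lost, against 22.7%. The share of lost regions was thus smaller in the loci than in the genome in both lines.

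**Figure D3:**
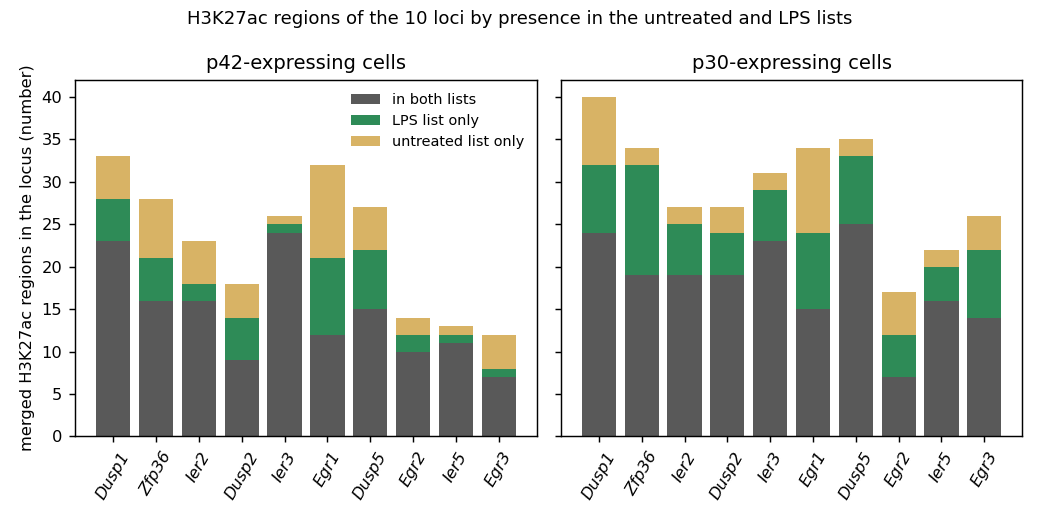
Number of merged H3K27ac regions in each locus that were in both lists of a line (grey), in the LPS list alone (green) or in the untreated list alone (yellow), for p42-expressing cells on the left and p30-expressing cells on the right. Summed over the loci the bars give 143, 38 and 45 regions in p42-expressing cells and 181, 72 and 40 in p30-expressing cells.

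Regions gained with LPS were weak. Their median rank in the LPS list lay at 81.3% of the list in p42-expressing cells and at 78.7% in p30-expressing cells, where the regions in both lists had medians of 29.8% and 24.9%. The median width of the gained regions was 355 bp and 278 bp. A gained region is by definition one not called in the untreated list. No median over the gained regions of the whole genome stands beside these values, so they do not set the loci apart. Gained in both lines were 5 of the 335 regions (1.49%, against 1.66% of all regions), in the loci of *Zfp36*, *Egr2*, *Dusp1*, *Egr1* and *Dusp5*. Lost in both were 2 (0.597%, against 3.95%), near *Egr2* and *Dusp1*. The best-ranked gained region of p30-expressing cells was one of the 5. It was 1244 bp wide, was centred 28.3 kb downstream of the *Egr2* start, and lay at 19.3% of the p30 list and 49.9% of the p42 list. The best-ranked gained region of p42-expressing cells, 31.8 kb upstream of the canonical *Dusp1* start, lay at 35.4% of its list and was gained in both lines too. These few regions were picked for their ranks and are given as a description.

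Between the lines, p30-expressing cells had the longer H3K27ac coverage at most of the loci. Untreated, the covered length was longer in p30-expressing cells at 8 of 10 loci, beside 9263 of 16447 genes. The median ratio of p30 to p42 was 1.12 against 1.03 over all genes. The untreated p30 list was also the longer one, with 139210 peaks against 129369. The comparison of covered length between the lines was not repeated with lists cut to equal numbers of peaks. The covered length was at least 1.5 times as long at *Egr3* alone (19058 bp in p42- and 31650 bp in p30-expressing cells), 1 of 10 against 7.15% of all genes. With LPS it was longer at 9 of 10 loci, beside 13662 of 16445 genes, and passed 1.5 times at *Egr3* and *Dusp5*, 2 of 10 against 18.8%. The median ratio with LPS was 1.22, the same as the 1.22 over all genes. The difference with LPS was thus of the size seen over all genes.

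The promoter rank was better by 1.5 times or more in untreated p30-expressing cells at *Dusp2* and *Zfp36*, 2 of 10 against 7.2% of all genes, and worse at none, against 9.37%. With LPS it was better in p30-expressing cells at *Egr1*, *Ier5*, *Dusp2* and *Dusp5*, 4 of 9 against 10.6%, and worse at *Ier2* and *Dusp1*, 2 of 9 against 8.06%. The *Ier2* call was lost when the rank was taken as a share of the list (0.420% against 0.302%, in lists of unequal length). *Dusp2* had the better rank in p30-expressing cells past this limit in both comparisons, and so did *Ier5* when ranks were taken as a share of the list or by fold enrichment, with ratios of 0.632 and 0.649 in untreated cells. Both comparisons use separate lists, but each rests on 1 list per line. Of the 335 regions, 109 (32.5%) were in neither p42 list, against 32% of all regions, and 42 (12.5%) were in neither p30 list, against 15.3%. Of the 48 regions at *Egr1*, 16 were in the p30 lists alone and 14 in the p42 lists alone, the highest count of each kind among the loci. Of the 26 at *Egr3*, 14 were in the p30 lists alone and 0 in the p42 lists alone.

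H3K4me1 was widespread in the loci and largely away from the promoters. The lists held 385 peaks in the loci in p42-expressing and 425 in p30-expressing cells. With both lists cut to the same number of peaks the order reversed, with 385 and 352. At the promoter, *Egr3*, *Ier3*, *Dusp1* and *Dusp5* had a peak in p42-expressing cells, 4 of 10 against 15.6% of all genes, and *Egr1*, *Egr3*, *Ier3* and *Dusp1* in p30-expressing cells, 4 of 10 against 21%. At *Dusp1* this peak was 192 bp wide with rank 62091 in p42-expressing cells, and 6317 bp wide with rank 1210 in p30-expressing cells. Its summit lay at base −860 from the start in p42- and at −5103 in p30-expressing cells. The p30 rank is thus that of a summit outside the promoter window, in a wide peak that reached into it. The other promoter peaks were under 1.4 kb. The length under H3K4me1 was longer in p30-expressing cells at 9 of 10 loci, beside 11606 of 15081 genes. The median ratio was 1.35 against 1.31 over all genes. The length was at least 1.5 times as long at *Egr1*, *Egr3*, *Ier5* and *Dusp5*, 4 of 10 against 35.7%, which is close to the share of all genes. *Zfp36* was the exception, with 15936 bp in p42-expressing and 13414 bp in p30-expressing cells.

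CEBPA is a basic leucine zipper factor that drives the myeloid fate of progenitors, and p30 lacks part of its activating N terminus but keeps the DNA-binding part. Binding at the promoters themselves was limited. A promoter site was called with anti-CEBPA for *Ier3* in p42-expressing cells, 1 of 10 against 6.16% of all genes, and for *Ier3* and *Zfp36* in p30-expressing cells, 2 of 10 against 6.01%. With anti-ER, promoter sites were called for *Ier3*, *Dusp1* and *Zfp36* in p42-expressing cells, 3 of 10 against 5.49%, and for these and *Dusp2* in p30-expressing cells, 4 of 10 against 9.29%. None of the EGR genes, *Ier2*, *Ier5* or *Dusp5* had a promoter site in any of the 4 lists.

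In the loci, sites were common, as they were at most genes. With anti-CEBPA, all 10 loci held a site in p42-expressing cells, against 86.7% of all genes, and 9 did in p30-expressing cells, against 79.6%. *Dusp5* was without one in p30-expressing cells. With anti-ER all 10 did in both lines, against 70.5% in p42-expressing and 79.6% in p30-expressing cells. The loci held 44 and 41 anti-CEBPA peaks and 46 and 74 anti-ER peaks, in p42- and p30-expressing cells. No summit of a merged site fell in a coding exon, 8 fell in untranslated exons, 26 in introns and 53 between genes.

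The sites lay in acetylated chromatin more often than sites elsewhere. Their summits were under untreated H3K27ac of the same line for 68.2% of anti-CEBPA peaks in p42-expressing cells, against 18.9% of all peaks of that list, and for 68.3% in p30-expressing cells, against 21.7%. With anti-ER the shares were 63.0% in p42-expressing cells, against 43.9%, and 75.7% in p30-expressing cells, against 38.3%. The loci themselves had a larger share under H3K27ac than those of other genes (above), and how much of the difference this accounts for was not tested.

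Merging the 4 factor lists by overlap gave 87 sites in the loci. Of these, 27 (31.0%) were in all 4 lists, against 20.9% of all merged sites, and 34 (39.1%) were in 1 list, against 42.6%. The single-list sites were mostly anti-ER sites of p30-expressing cells (23 of 34). In neither p42 list were 30 sites (34.5%), against 17.7% of all sites, and in neither p30 list were 9 (10.3%), against 28.4%. The antibodies did not give the same picture of the lines. The p30 list was the longer one with anti-ER and the shorter one with anti-CEBPA, and in the loci 44 sites of p42-expressing and 41 of p30-expressing cells were called with anti-CEBPA.

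**Figure D4:**
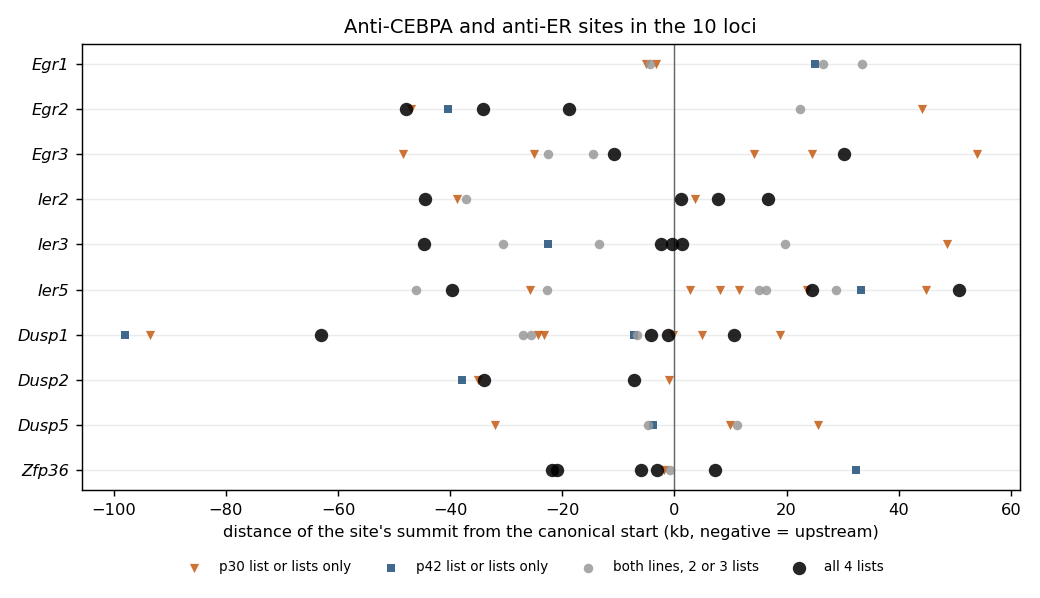
Distance of each of the 87 anti-CEBPA and anti-ER sites from the canonical start of its gene (kb, negative is upstream), with large black circles for the 27 sites in all 4 lists, grey circles for the 21 others found in both lines, orange triangles for the 30 found in p30-expressing cells alone and blue squares for the 9 found in p42-expressing cells alone. *Egr1* and *Dusp5* have no site in all 4 lists, and *Zfp36* has 5.

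Sites in all 4 lists were found at 8 of the 10 loci, 5 at *Zfp36*, 4 each at *Dusp1*, *Ier2* and *Ier3*, 3 each at *Egr2* and *Ier5*, and 2 each at *Egr3* and *Dusp2*. Of the 27, 20 (74.1%) had the summit under H3K27ac in all 4 H3K27ac lists, against 28.2% of all sites in 4 lists. Of the other 60 sites of the loci, 33 (55%) did, against 16% of all sites in fewer lists. Within 10 kb of the start lay 11 of the 27 and 16 of the 60, and no share over all merged sites was computed for this distance. Between the lines, the rank as a share of the list was better in p30-expressing cells for 14 of the 27 with anti-CEBPA (51.9%), against 32.1% of all sites in 4 lists, and for 24 of 27 with anti-ER (88.9%), against 79.9%.

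The CEBP motif TTGCNNAA was found within 100 bases of the summit at 14 of the 27 sites in all 4 lists (51.9%) and at 15 of the other 60 (25.0%). Among the sites of the loci called with anti-CEBPA, 23 of 44 had it in p42-expressing cells (52.3%), against 50.7% of all windows of that list. In p30-expressing cells 17 of 41 had it (41.5%), against 53.1%. The share was 51.7% and 47.0% of all anti-ER windows of p42- and p30-expressing cells, and 15.6% at the 32 sites of the loci called with anti-ER alone. No share over the genome was computed for sites split by number of lists or called with anti-ER alone. The 4 sites shown are the best-ranked anti-CEBPA sites of *Zfp36*, *Dusp1* and *Dusp5* in p42-expressing cells and the *Dusp1* site with the best anti-ER ranks, on GRCm39 and on the strand of the gene, with each CEBP motif in capitals. The windows are chr7:28085598-28085627 (*Zfp36*), cut to 30 bases since it lies in an untranslated exon, and chr17:26790468-26790668 and chr17:26731491-26731691 (*Dusp1*) and chr19:53528534-53528734 (*Dusp5*), each 201 bases around the summit.
Zfp36 at 5.9 kb upstream: ggggggataTTGTGCAAtgtgtggggaggc
Dusp1 at 63.1 kb upstream: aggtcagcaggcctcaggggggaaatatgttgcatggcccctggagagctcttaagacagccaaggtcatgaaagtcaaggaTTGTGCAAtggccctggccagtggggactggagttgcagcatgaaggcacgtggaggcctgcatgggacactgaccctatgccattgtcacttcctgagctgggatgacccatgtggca
Dusp1 at 4.1 kb upstream: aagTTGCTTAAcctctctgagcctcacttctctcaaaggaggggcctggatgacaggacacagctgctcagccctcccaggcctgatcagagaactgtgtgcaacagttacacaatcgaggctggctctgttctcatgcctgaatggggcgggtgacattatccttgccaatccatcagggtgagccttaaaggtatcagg
Dusp5 at 11.1 kb downstream: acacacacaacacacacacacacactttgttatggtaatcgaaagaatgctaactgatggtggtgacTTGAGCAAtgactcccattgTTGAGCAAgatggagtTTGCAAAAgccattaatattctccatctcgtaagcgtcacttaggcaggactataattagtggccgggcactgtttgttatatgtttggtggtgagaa

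The *Zfp36* site, in an untranslated exon of the neighbouring *Med29*, was one of the strongest of the loci. Its anti-CEBPA ranks were 2387 in p42- and 704 in p30-expressing cells, its anti-ER ranks were 855 and 405, and its fold enrichment over the local background was 24.5, 42.4, 29.4 and 48.5. The *Ier2* site, in the untranslated exon of *Ier2* itself, had anti-CEBPA ranks of 6252 and 2744 and anti-ER ranks of 1027 and 1199. It lies 1.09 kb downstream of the start. The CEBP motif began at base −6 from the summit in the first and at base −4 in the second. Both lay under H3K27ac in all 4 lists.

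At *Dusp1* 2 sites stood out. The site 4.1 kb upstream of the canonical start had anti-CEBPA ranks of 2916 in p42- and 3626 in p30-expressing cells, and anti-ER ranks of 363 and 508. Its single CEBP motif lies at the edge of the window, at base −97 from the summit. The site 63.1 kb upstream, in an intron of *Ergic1*, had anti-CEBPA ranks of 1188 and 7080 and anti-ER ranks of 390 and 4322, better in p42-expressing cells with both antibodies. It is in the locus only through the long annotated *Dusp1* transcripts.

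At *Dusp5* and *Egr1* the best-ranked anti-CEBPA site of p42-expressing cells was missing from the anti-CEBPA list of the other line. The *Dusp5* site, 11.1 kb downstream of the start in an intron of the gene, ranked 11291 in p42-expressing cells with anti-CEBPA and was not called in p30-expressing cells. With anti-ER it was called in both, with ranks of 3813 and 7990. It holds 3 CEBP motifs, and its summit was under H3K4me1 of both lines and under no H3K27ac peak. At *Egr3* the best-ranked anti-CEBPA site of p42-expressing cells, 30.3 kb downstream in an intron of *Bin3*, showed the same contrast between antibodies. Its anti-CEBPA ranks were 5991 in p42- and 30083 in p30-expressing cells, and its anti-ER ranks were 1925 and 2896.

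In the other loci the best-ranked anti-CEBPA sites of p42-expressing cells ranked behind those of *Zfp36*, *Ier2*, *Dusp1* and *Egr3*. That of *Ier5*, 50.8 kb downstream between genes, ranked 6385 in p42- and 3802 in p30-expressing cells, and that of *Ier3*, 44.7 kb upstream, ranked 9646 and 4817. Those of *Egr2*, 18.9 kb upstream (13161 and 14530), and of *Dusp2*, 34.0 kb upstream in an intron of *Stard7* (22302 and 29763), were in all 4 lists as well. *Egr1* had the weakest. Its best anti-CEBPA site in p42-expressing cells, 4.33 kb upstream, ranked 39321 of 47517, was not called in p30-expressing cells with anti-CEBPA, and had rank 24363 there with anti-ER. The 27 sites in all 4 lists ranked between 1188 and 42466 in the p42 anti-CEBPA list, the last being a site 34.1 kb upstream of *Egr2*.

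Of 38 other immediate early genes and feedback genes of MAPK signalling, 31 had an H3K27ac peak at the promoter in each of the 4 lists, and in 25, 21, 23 and 25 cases it was in the best 10% of the list (untreated and LPS in p42-expressing cells, then in p30-expressing cells). The best-ranked in untreated p42-expressing cells were *Elk4*, a serum response factor partner, at rank 38, *Nab1*, a corepressor of EGR proteins, at 290, and *Spred2*, an inhibitor of RAS signalling, at 613. In the p42 anti-CEBPA list 8 of the 38 had a promoter site, led by *Ptgs2*, the inducible cyclooxygenase, at rank 1396, *Spred1* at 6878 and *Spry4* at 7832. In p30-expressing cells these 3 ranked 875, 4372 and 2065. The median ratio of covered length with LPS was 0.929 in p42-expressing and 1.02 in p30-expressing cells over these genes, beside 0.945 and 1.03 over the 10. Past 1.5 times were 5 of 36, all shorter with LPS, in p42-expressing cells and 1 of 37, also shorter, in p30-expressing cells.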

How the data were processed

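ChIP-seq of 20 immunoprecipitated and 18 input samples of mouse HPC-7 cells was used through 10 peak lists, and the human list of the series was not used here. According to the study's methods and the submitters' processing notes, reads were trimmed with Trim Galore 0.6.6, aligned to mm39 with Bowtie2 and freed of Picard duplicates, and MACS2 called narrow peaks over input at a q-value of 0.05. The anti-CEBPA lists lack a calling mark that the others carry, so calling settings may differ between antibodies. The deposited lists give, for each summit, the fold enrichment relative to local background, a ratio. They also give, as deposited by the authors, −log10 of the q-value. Neither was compared between lists except as a rank. The study states a range of read depth over all samples but not the depth behind each list, so no intervals are given.

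Peaks were ranked by −log10 q, then by fold. A peak counted in a locus when its summit lay there, and lists were merged by an overlap of at least 1 bp. Calls between lists used 1.5 times. No test was run, since each group has 1 list. Windows, overlaps and merging were tested on simulated peaks. The 10 genes, the 38 other genes, the marker genes, motifs and sites shown were chosen with earlier results of these data known. Named were all 10 genes, the 3 best of the 38 by promoter H3K27ac in untreated p42-expressing cells, the 3 best by promoter anti-CEBPA site in p42-expressing cells, the best anti-CEBPA site of each locus and sites found in all 4 factor lists. Others, such as the *Dusp1* site shown for its anti-ER ranks, were picked after their values were seen. Alternatives were a q-value under 1e-05, equal numbers of peaks per antibody, flanks of 20 kb, peaks overlapping the locus, promoters within 2500 bp, any transcript start, ranks by fold and reciprocal overlap of 50%. Sequence and gene models came from GRCm39 and GENCODE M39, and the promoter sequence of 1 gene is not reported here. Python 3.11.15 with numpy 2.4.6, pandas 2.3.3 and matplotlib 3.10.9 was used.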

Additional observations from a re-analysis of the deposited data

Results flagged for a closer look

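The covered length of H3K27ac moved in opposite directions with LPS in the lines at 6 of the 10 loci, each on 1 pooled list per group, and this contrast was not tested. The ratio of LPS to untreated was 0.872 in p42- and 1.1 in p30-expressing cells at *Dusp5*, and 0.924 and 1.06 at *Zfp36*. It was 0.953 and 1.03 at *Egr2*, 0.971 and 1.06 at *Ier2*, 0.973 and 1.03 at *Ier5*, and 0.982 and 1.01 at *Dusp2*. Over all genes the median ratio was 0.837 in p42- and 0.992 in p30-expressing cells, so the lists as a whole differ in the same direction. The length was shorter with LPS at 13796 of 16464 genes in p42-expressing cells and longer at 7909 of 16544 in p30-expressing cells. How many genes moved in opposite directions was not counted, so the 6 loci are not set apart from other genes.

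The promoter H3K27ac rank of *Egr1* moved by a factor of 1.6 with LPS in p42-expressing cells, to a worse rank, and by a factor of 0.607 in p30-expressing cells, to a better one. The difference was not tested.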

How the results depend on the processing

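Each value comes from 1 list per group, pooled by the authors or from 1 library. No paired analysis was possible because the lists hold no replicates and no result comes from a test. There was no library to leave out. Of 161 values recomputed under the alternatives, 132 stayed within 1.5 times of the reported value, with the other transcript starts, peaks overlapping the locus and ranks by fold moving none past it.

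With a q-value under 1e-05, promoter peaks in the best 10% fell to 8 in the untreated p42 list and 5 in the p42 list with LPS. They fell to 9 in each p30 list. Regions gained were then 20 (p42) and 32 (p30) and regions lost 25 and 15. H3K27ac peaks in the loci were 160 and 189 in p30-expressing cells, untreated and with LPS, and H3K4me1 peaks 253 (p42) and 272 (p30). With flanks of 20 kb, which holds less sequence, H3K27ac peaks numbered 102 and 102 in p42-expressing and 100 and 135 in p30-expressing cells, and H3K4me1 peaks 194 and 209. Regions gained, lost and kept were 12, 12 and 65 in p42-expressing cells and 32, 11 and 77 in p30-expressing cells, and 16 factor sites were in all 4 lists, 17 in both anti-CEBPA lists and 25 in both anti-ER lists. With equal numbers of peaks per antibody 46 regions were gained and 25 lost in p42-expressing cells. The promoter peaks in the best 10% were then 8 in the untreated p42 list. With reciprocal overlap of 50% 81 regions were kept in p42-expressing cells. With promoters within 2500 bp, 3 (p42) and 4 (p30) genes had an anti-CEBPA site. The alternatives were computed for the 10 genes only, so these counts have no share of all genes beside them. Ranks as a share of the list, an alternative chosen after seeing the data, left 1 gene, *Dusp1* and no longer *Ier2*, with a worse promoter rank in p30-expressing than p42-expressing cells with LPS. Ranks by fold added *Zfp36* to the genes with a worse promoter rank in p30-expressing than p42-expressing cells with LPS. Its ratio was 1.57, against 1.41 with ranks by −log10 q. Causes of these moves were not tested.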
